A study of Mus musculus with 20 samples.

Results

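Wnt ligands, their frizzled receptors and LRP co-receptors, their secreted antagonists and the best known intracellular members of the pathway were measured in cystic and control mouse kidneys. Members were chosen by symbol: each gene of the count table named Wnt, Fzd, Sfrp or Dkk followed by digits and at most 1 letter, joined by *Lrp5*, *Lrp6*, *Wif1*, *Axin2*, *Lef1*, *Tcf7* and *Ctnnb1*. This gave 44 of 24411 genes, which were 19 ligands, 12 receptors and co-receptors, 9 secreted antagonists and 4 intracellular members. Wnt proteins are secreted, lipid-modified signals that bind frizzled receptors together with a co-receptor, and the canonical branch protects beta-catenin from destruction so that it can act with TCF and LEF factors in the nucleus. Other Wnt signals act on cell polarity and movement without beta-catenin, and secreted antagonists such as the Sfrp and Dkk proteins bind the ligands or the co-receptors. In the developing kidney, *Wnt9b* from the ureteric bud and *Wnt4* in the mesenchyme start the nephrons, *Wnt11* acts at the bud tips, and *Wnt7b* from the collecting duct is needed for the medulla.

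RNA of kidneys taken at P125 was sequenced from 20 C57BL/6 mice of 3 litters (A, B and C), with 1 library per mouse and 5 mice in each of 4 groups. Mutants were *Pkd2 fl/fl* with both *Pax8 rtTA* and *TetO Cre*, and controls were also *Pkd2 fl/fl* but lacked 1 of these transgenes. Each group, controls included, received doxycycline (DOX) at 50 mg per kg by intraperitoneal injection from P27 to P29. The Pax8 promoter drives recombination in tubules and collecting ducts, and the study names epithelial cells as the main targets. Mice are called by sex, genotype and number: MC1 to MC5 are male controls, MM1 to MM5 male mutants, FC1 to FC5 female controls and FM1 to FM5 female mutants. The litters were spread unevenly: litter B held 1 male control (MC4), litters A and C held 1 female control and 1 female mutant each, and litter C held 1 male control and 1 male mutant.

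Libraries held 11307741 to 19324073 counts, with a median of 15813304.5. FM4 stood apart from the other 19 libraries. It had the lowest total, 14850 detected genes where the others had 16776 to 17724, and 76 genes with a single count where the others had 708 to 859. Several Wnt ligands have few counts, and calls of members that include FM4 are given with and without it, with counts alone for other lists of genes. In FM4 a count of 0 allows up to 0.259 CPM (counts scaled to library sizes by the TMM method), and in the other libraries up to between 0.151 and 0.243 CPM, as far as counting error goes. For FM4 this bound is in doubt, because so few of its genes had a single count, and a 0 there may hide a higher level.

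*Pkd2* transcripts matched the labels in each sex. *Pkd2* read 272, 298, 250.2, 332 and 303 CPM in the male controls MC1 to MC5 and 109.7, 124, 109.6, 133 and 120.1 CPM in the male mutants MM1 to MM5. In females *Pkd2* read 193, 306, 291, 218 and 278 CPM in the controls FC1 to FC5 and 150.1, 133, 94.7, 182 and 166 CPM in the mutants FM1 to FM5. Mutants lay below controls in both sexes with no overlap, and no mutant lay near 0. The deposited values count whole genes and do not separate exons or cells. The log2 fold change was −1.32 (SE 0.0827, adjusted p = 2.18e-05) in males, −0.80 (SE 0.176, adjusted p = 0.0276) in females and −1.06 (SE 0.12, adjusted p = 9.7e-06) in both sexes together, by edgeR's quasi-likelihood test with Benjamini-Hochberg adjustment over all genes tested. A gene was called when its adjusted p was under 0.01, so the female difference was not called by edgeR within females with FM4 included. Without FM4 it was −0.91 (adjusted p = 0.00909) in females and −1.13 (adjusted p = 1.83e-06) in both sexes together. With FM4 it was called in females by DESeq2's Wald test (adjusted p = 0.000428) and in a fit of the 20 mice together (adjusted p = 0.00117).

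Per kilobase of exon, the pathway's kidney transcripts spanned several orders of magnitude, and receptors and ligands overlapped in their range. *Ctnnb1*, which encodes beta-catenin, had the highest level in controls at 123 ± 7.60 CPM per kb (SD, n = 10), followed by *Sfrp1* at 49.2 ± 12.3, *Fzd1* at 19.7 ± 2.97, *Lrp6* at 16.5 ± 2.87, *Dkk2* at 13.9 ± 2.96 and *Fzd4* at 12.5 ± 3.47. From *Fzd1* to *Fzd4* in this order, neighbours overlapped in mean ± SD. The ligand with the highest level per kb in controls was *Wnt5b* at 3.37 ± 0.720 CPM per kb, followed by *Wnt7b* at 2.35 ± 1.28 and *Wnt5a* at 2.18 ± 0.306, where *Wnt7b* overlapped with both of the others in mean ± SD and *Wnt5b* did not overlap with *Wnt5a*. These orders are of means over both sexes, and neighbours can change places within a sex. In mutants *Wnt7b* stood at 4.53 ± 1.65 CPM per kb and *Wnt5b* at 3.57 ± 1.17. *Tcf7*, *Axin2* and *Lef1* had 0.655 ± 0.134, 0.456 ± 0.133 and 0.112 ± 0.0554 CPM per kb in controls.

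**Figure D1:**
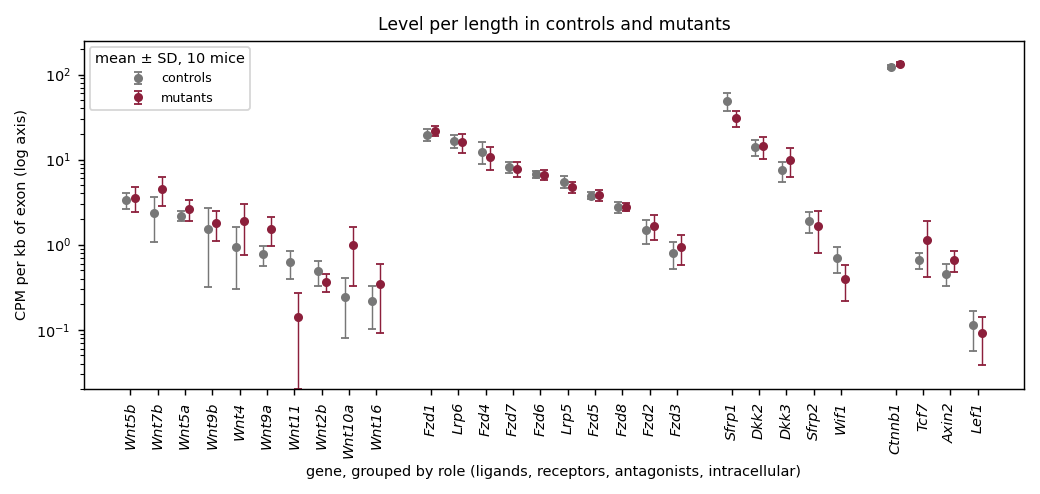
Level of each member tested in all 20 mice together, in CPM per kb of exon on a log axis, as the mean and SD of 10 controls (grey) and 10 mutants (red), grouped by role. Receptors lie between 0.803 (*Fzd3*) and 19.7 CPM per kb (*Fzd1*) in controls, ligands between 0.216 (*Wnt16*) and 3.37 (*Wnt5b*), and the SD of *Wnt11* in mutants runs off the lower end of the axis.

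The first question was which members differed between mutants and controls. In both sexes together, 3 ligands rose in mutants (*Wnt10a*, *Wnt9a* and *Wnt7b*), the ligand *Wnt11* and the antagonist *Sfrp1* fell, and no receptor or intracellular member was called. These 3 of 29 members tested stand beside 10.0% of all genes tested that rose, and the 2 that fell beside 5.86%, shares near those of all genes, so the counts say nothing particular about the members. The median log2 fold change was 0.08 for the members and −0.01 for all genes. In males, *Wnt10a* rose, beside 5.25% of all genes, and *Wnt11* and *Sfrp1* fell, beside 3.20%. That was 1 and 2 of 29 members, with medians of 0.12 for the members and −0.002 for all genes. In females, *Sfrp1* fell, 1 of 32 members beside 0.180% of all genes, and 0 members rose beside 0.457%. DESeq2 called 1 female rise, and 6 members differed in either direction at an unadjusted p under 0.05, beside 2979 of 14439 genes of all. Female medians were 0.17 for the members and −0.0029 for all genes.

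These counts depended on single mice. Where a mouse was alone in its litter and group (MC4, MC5, MM5, FC1, FC5, FM1 and FM5), leaving it out also took the mice of that litter that it was compared with out of the contrast, such as MM3 and MM4 with MC4. Without MC4, 0 members were called in males and 187 genes of all in place of 1185, and with other mice left out the number ran up to 1863 without MM2. Without MM2, 4 members rose in males, with *Dkk3*, *Wnt7b* and *Wnt9a* beside *Wnt10a*. Without FM4, the female calls were 1 rise (*Wnt9a*) and 2 falls (*Wnt11* and *Sfrp1*), and the genes called among all went from 92 to 866, where leaving out other females gave 3 (without FC2) to 57 (without FM3). In the joint comparison without FM4, 6 members rose and 3 fell, and 2994 genes of all were called in place of 2252. Among these 6 were *Sfrp4* and *Sfrp5*, which passed the filter on low counts mostly through the mutants. A member can pass the filter on low counts through its high group alone, which limits its test to that direction: in males *Wnt10a* passed through the mutants and *Wnt11* through the controls, and among mutants *Wnt11* did not pass. *Sfrp4*, *Sfrp5*, *Wnt2* and *Wnt7a* passed in some comparisons and not in others, so the counts and medians cover the members that passed. Whole kidneys were sequenced, so fewer cells of a type and less RNA per cell cannot be told apart.

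Among ligands, *Wnt10a* had the largest rise called in males and in the joint comparison, from control levels near the floor of counting in males, where each control held 2 to 5 counts. *Wnt10a* activates the canonical branch and is best known from skin, hair and teeth, and the gene lies at chr1:74791516-74804179 (GRCm38), 6.19 kb from *Wnt6*. *Wnt10a* read 0.366, 0.127, 0.376, 0.325 and 0.129 CPM in the male controls MC1 to MC5 and 3.84, 0.957, 2.69, 3.10 and 0.790 CPM in the male mutants MM1 to MM5. In females *Wnt10a* read 0.527, 1.25, 0.943, 0.953 and 0.987 CPM in the controls FC1 to FC5 and 4.24, 2.76, 4.76, 0.517 and 0.529 CPM in the mutants FM1 to FM5. Male mutants lay above the male controls with no overlap, whereas among females FM1, FM2 and FM3 lay above the controls and FM4 and FM5 at their lower end. Its log2 fold change was 3.02 (SE 0.466, adjusted p = 0.00188) in males, 1.35 (SE 0.616, adjusted p = 0.246) in females and 1.99 (SE 0.436, adjusted p = 0.00235) in the joint comparison. The male call was lost without MC4 (log2 fold change 2.98, adjusted p = 0.0147, in a range of 0.000131 to 0.0147 over the 10 mice left out in turn), and without FM4 the female value was 1.67 (adjusted p = 0.0399) and the joint value 2.18 (adjusted p = 0.000207). Within the 6 groups of sex and litter, the mutants' mean log2 CPM differed from the controls' by −0.77 to 2.74, higher in 5 and lower in the females of litter C.

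*Wnt9a* and *Wnt7b* rose to a smaller degree from higher levels. *Wnt9a*, at chr11:59306928-59333552, is a canonical ligand known from joints and blood vessels. *Wnt9a* read 2.12, 1.78, 2.7, 3.0 and 2.25 CPM in the male controls MC1 to MC5 and 5.65, 3.49, 4.45, 5.48 and 3.33 CPM in the male mutants MM1 to MM5. In females *Wnt9a* read 1.58, 2.45, 3.77, 3.34 and 2.58 CPM in the controls FC1 to FC5 and 5.15, 6.95, 9.47, 3.62 and 3.94 CPM in the mutants FM1 to FM5. Male mutants lay above male controls with no overlap, and in females FM4 lay inside the range of the controls. The log2 fold change of *Wnt9a* was 0.99 (SE 0.181, adjusted p = 0.000548) in the joint comparison, which was called, and 0.86 (SE 0.211, adjusted p = 0.0152) in males and 1.14 (SE 0.301, adjusted p = 0.0547) in females, which edgeR did not call and DESeq2 did (adjusted p = 0.0051 and 0.00634). Without FM4 the female value was 1.31 (adjusted p = 0.00578) and the joint value 1.08 (adjusted p = 5.77e-05). Within sex and litter the differences ran from 0.54 to 1.63, higher in mutants in all 6 groups.

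*Wnt7b*, at chr15:85535437-85582473, is the collecting duct's signal to the medullary interstitium during development. *Wnt7b* read 3.66, 5.15, 9.61, 8.85 and 8.87 CPM in the male controls MC1 to MC5 and 24.7, 10.7, 17.4, 22.8 and 11.6 CPM in the male mutants MM1 to MM5. In females *Wnt7b* read 14.3, 10.3, 25.9, 15.5 and 12.8 CPM in the controls FC1 to FC5 and 28.3, 28.4, 36.8, 23.8 and 17.2 CPM in the mutants FM1 to FM5. Each male mutant lay above each male control, while among females the control FC3 lay within the range of the mutants and FM5 was the lowest mutant. The joint log2 fold change of *Wnt7b* was 0.97 (SE 0.206, adjusted p = 0.00196), beside 1.19 (SE 0.298, adjusted p = 0.0166) in males and 0.79 (SE 0.234, adjusted p = 0.0803) in females, where it was not called. Under other processing, edgeR called it in males with no filter on low counts (adjusted p = 0.00527) and without a litter term (adjusted p = 0.00796). All 20 mice in 1 fit also called it in males (adjusted p = 0.0091), and DESeq2 did not (adjusted p = 0.0142). Without FM4 the log2 fold change was 0.86 (adjusted p = 0.0404) in females and 1.01 (adjusted p = 0.00126) in the joint comparison. Mutants were higher within all 6 groups of sex and litter, by 0.38 to 1.5. An antisense transcript, AU022754, shares 6.62% of the exon length of *Wnt7b*, and the deposited counts do not state how strands were assigned. The same doubt holds for exon stretches of *Wnt11* (8.80%), *Sfrp2* (16.1%), *Lef1* (13.7%), *Fzd5* (17.8%), *Wnt5a* (4.58%), *Axin2* (3.8%) and *Fzd6* (3.16%), which lie opposite annotated transcripts that are not in the count table.

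*Wnt11* fell further than any other member called. It is a ligand of the branch that acts without beta-catenin, and it marks ureteric bud tips in the embryo; the gene lies at chr7:98835112-98855195. *Wnt11* read 2.34, 2.41, 2.40, 1.70 and 1.16 CPM in the male controls MC1 to MC5 and 1.07, 0.41, 0.262, 0.264 and 0.0564 CPM in the male mutants MM1 to MM5. In females *Wnt11* read 4.55, 2.40, 3.54, 2.86 and 2.43 CPM in the controls FC1 to FC5 and 1.72, 0.839, 0.861, 0 and 0.353 CPM in the mutants FM1 to FM5. Mutants lay below the controls of their sex with no overlap, FM4 had no count, and MM1 and FM1 were the highest mutants of their sexes. The other male mutants held 1 to 6 counts each, so the size of the fall rests on levels near the floor of counting. Its log2 fold change was −2.16 (SE 0.374, adjusted p = 0.0032) in males, −2.11 (SE 0.514, adjusted p = 0.0394) in females and −2.15 (SE 0.314, adjusted p = 8.49e-05) in the joint comparison. The male call was lost without MC4 (−2.0, adjusted p = 0.0248, in a range of 0.000301 to 0.0248 over the mice left out), and the female difference, not called by edgeR with all 10 females, was −1.81 (adjusted p = 0.00292) without FM4. With FM4, DESeq2 (adjusted p = 0.00023) and a fit of the 20 mice together (adjusted p = 0.00256) called it. In the joint comparison it was −1.98 (adjusted p = 6.92e-06) without FM4, and mutants were lower in all 6 groups of sex and litter, by −2.81 to −1.34.

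The other ligands tested in all mice together were not called. *Wnt4*, which in the embryo turns mesenchyme into epithelium, came nearest: *Wnt4* averaged 2.73 ± 0.643 CPM in male controls, 6.04 ± 3.76 in male mutants, 5.25 ± 3.53 in female controls and 9.82 ± 5.27 in female mutants (SD, n = 5), a joint log2 fold change of 0.92 (adjusted p = 0.035) and 0.96 (adjusted p = 0.0288) without FM4. The control FC3 held 11.4 CPM of *Wnt4* and the other female controls 2.73 to 4.71, and without FC3 the joint value was 1.18 (adjusted p = 0.007, in a range of 0.007 to 0.12 over the 20 mice left out in turn). FC3 was also the highest control for *Wnt7b* and *Wnt9b*. *Wnt9b* averaged 3.81 ± 1.62 CPM in male controls, 6.38 ± 2.73 in male mutants, 9.95 ± 6.38 in female controls and 10 ± 2.68 in female mutants, a difference of 0.31 (adjusted p = 0.373). *Wnt5a* averaged 16.0 ± 1.87 CPM in male controls, 17.0 ± 4.83 in male mutants, 18.1 ± 2.57 in female controls and 24.0 ± 4.71 in female mutants, with 0.22 (adjusted p = 0.185). *Wnt5a* and *Wnt5b* are ligands that act mainly without beta-catenin, and *Wnt5b* had a joint value of 0.08 (adjusted p = 0.646). *Wnt16* averaged 0.601 ± 0.264 CPM in male controls, 0.763 ± 0.541 in male mutants, 1.29 ± 0.434 in female controls and 2.24 ± 1.03 in female mutants, with 0.64 (adjusted p = 0.159), and 0.68 (adjusted p = 0.121) without FM4. *Wnt2b* averaged 2.11 ± 0.896 CPM in male controls, 1.43 ± 0.189 in male mutants, 1.95 ± 0.450 in female controls and 1.64 ± 0.470 in female mutants, with −0.35 (adjusted p = 0.22). *Wnt2b* is made by stromal cells of several organs, and its difference, unlike those of *Wnt4* and *Wnt16*, was below 0. Over the 10 ligands tested, the median joint log2 fold change was 0.47, where all genes had −0.01.

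*Wnt7a* was too rare for the joint test: 0 controls and 6 mutants passed the limit of 0.632 CPM. *Wnt7a* read 0.0732, 0.318, 0.150, 0.0811 and 0.129 CPM in the male controls MC1 to MC5 and 2.09, 0.41, 0.852, 1.32 and 0.282 CPM in the male mutants MM1 to MM5. In females *Wnt7a* read 0.132, 0, 0.0589, 0.119 and 0.152 CPM in the controls FC1 to FC5 and 2.83, 1.56, 3.14, 0 and 0.235 CPM in the mutants FM1 to FM5. Controls held 0 to 5 counts each. MM1 to MM4 and FM1 to FM3 stood above each of the controls, MM5 and FM5 lay within their range, and FM4 had no count. *Wnt7a* is a close relative of *Wnt7b* and is made by epithelia of the female reproductive tract and by the skin of the limb bud. With no filter on low counts, the joint log2 fold change was 3.27 (adjusted p = 0.000448), a value that rests on control levels near the floor of counting. *Wnt7a* was named with these values after they were seen.

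**Figure D2:**
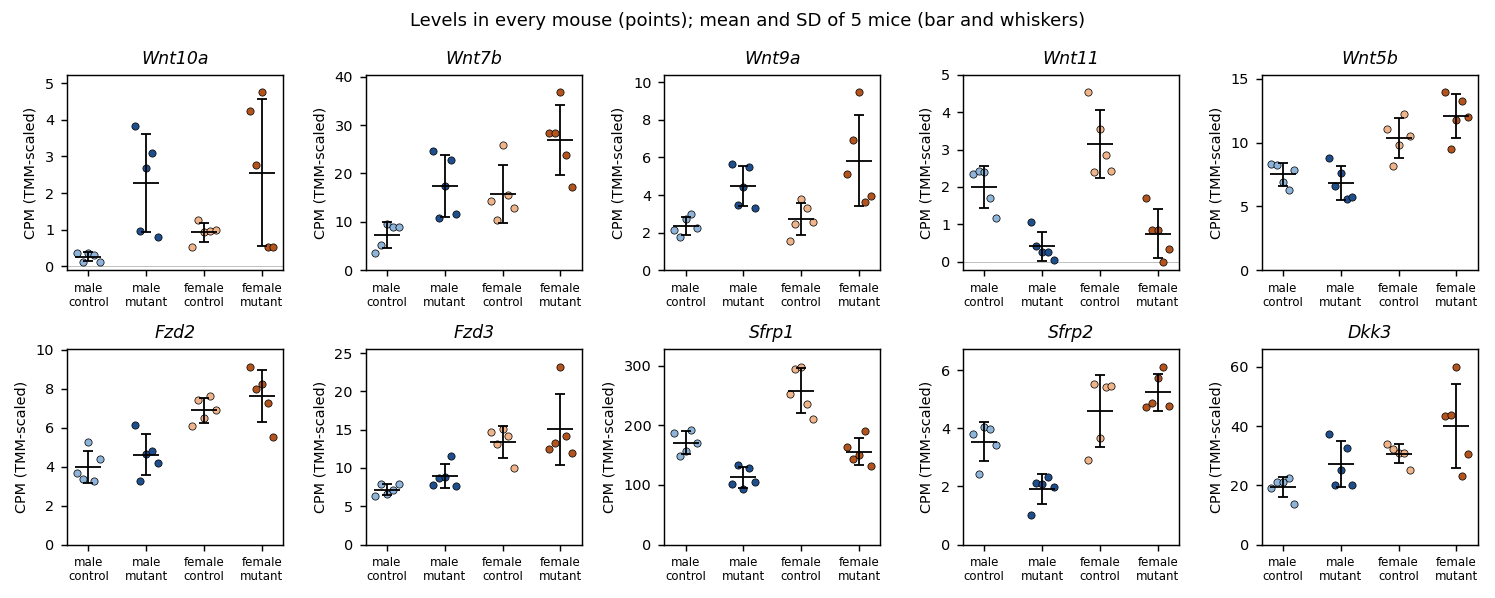
CPM of the 10 members called in at least 1 comparison, 1 point per mouse (left to right in the order of the mouse numbers), with the mean and SD of the 5 mice of each group. *Wnt11* and *Sfrp1* lie lower in mutants than in controls of the same sex without overlap, *Wnt10a*, *Wnt7b* and *Wnt9a* lie higher in male mutants without overlap, and *Dkk3*, *Fzd2* and *Fzd3* lie lower in male than in female controls.

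Of the 12 receptors and co-receptors, 10 had enough counts to be tested, and none of these was called between mutants and controls. In the joint comparison edgeR called 0 of the 10, beside 10.0% of all genes that rose and 5.86% that fell, so that 0 of so few says little about receptors as a group. Of the 10, 1 had an unadjusted p under 0.05, beside 5346 of 14191 genes of all, and DESeq2's Wald test called 0 in either direction. Their median log2 fold change was 0.003. The member with the small unadjusted p was *Lrp5*, a co-receptor of the canonical branch: *Lrp5* averaged 49.2 ± 6.54 CPM in male controls, 45.3 ± 3.71 in male mutants, 58.2 ± 8.82 in female controls and 47.1 ± 9.81 in female mutants (SD, n = 5), a joint log2 fold change of −0.21 (adjusted p = 0.105). *Lrp6* averaged 248 ± 35.4 CPM in male controls, 261 ± 42.0 in male mutants, 202 ± 29.4 in female controls and 178 ± 31.9 in female mutants, with −0.07 (adjusted p = 0.691). *Lrp6* is the more abundant of the pair per kb, and its mean was lower in females than in males of the same genotype.

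The frizzleds, which bind the ligands, are given in order of their level per kb. *Fzd1* averaged 78.8 ± 16.4 CPM in male controls, 86.6 ± 13.0 in male mutants, 87.0 ± 6.31 in female controls and 97.1 ± 8.87 in female mutants (SD, n = 5). *Fzd4* averaged 71.4 ± 13.3 CPM in male controls, 67.5 ± 10.7 in male mutants, 95.9 ± 25.9 in female controls and 77.3 ± 29.4 in female mutants. *Fzd7* averaged 33.4 ± 4.74 CPM in male controls, 30.4 ± 3.09 in male mutants, 40.4 ± 2.27 in female controls and 40.0 ± 5.97 in female mutants. These 3 had joint log2 fold changes of 0.15, −0.22 and −0.05, with adjusted p of 0.233, 0.319 and 0.641. *Fzd4* is known from blood vessels, where it also binds the ligand norrin. *Fzd6* averaged 30.7 ± 3.28 CPM in male controls, 31.7 ± 2.50 in male mutants, 34.4 ± 2.18 in female controls and 32.5 ± 5.40 in female mutants. *Fzd5* averaged 27.8 ± 1.89 CPM in male controls, 29.2 ± 3.29 in male mutants, 24.4 ± 1.47 in female controls and 23.6 ± 2.71 in female mutants. *Fzd8* averaged 15.9 ± 1.94 CPM in male controls, 17.3 ± 1.88 in male mutants, 17.2 ± 3.05 in female controls and 16.3 ± 2.0 in female mutants. *Fzd5* and *Fzd8* are close relatives, *Fzd6* acts in planar cell polarity, and the joint values of *Fzd6*, *Fzd5* and *Fzd8* were −0.02, 0.02 and 0.04 (adjusted p = 0.89, 0.841 and 0.758). *Fzd2* and *Fzd3* had the largest positive joint values among the receptors, 0.19 (adjusted p = 0.324) and 0.21 (adjusted p = 0.176). The differences of the 10 receptors ran from −0.22 to 0.21 in the joint comparison, and without FM4 from −0.24 to 0.24 with 0 called.

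Among secreted antagonists, *Sfrp1* fell in males, in females and in the joint comparison. *Sfrp1* binds Wnt ligands outside the cell, was the most abundant antagonist per kb, and lies at chr8:23411502-23449632. *Sfrp1* read 187, 148, 157, 193 and 171 CPM in the male controls MC1 to MC5 and 102, 133, 94.1, 129 and 105 CPM in the male mutants MM1 to MM5. In females *Sfrp1* read 253, 294, 299, 236 and 211 CPM in the controls FC1 to FC5 and 163, 144, 150.1, 191 and 132 CPM in the mutants FM1 to FM5. Mutants lay below controls in each sex with no overlap, and female controls were the highest group, so that male controls and female mutants overlapped. The log2 fold change of *Sfrp1* was −0.62 (SE 0.114, adjusted p = 0.00395) in males, −0.70 (SE 0.11, adjusted p = 0.00912) in females and −0.67 (SE 0.0823, adjusted p = 1.91e-05) in the joint comparison. The calls within a sex were fragile: in males the adjusted p was 0.0123 without MC1, 0.0352 without MC4, 0.0141 without MC5 and 0.014 without MM5, in a range of 0.000786 to 0.0352 over the mice left out. The log2 fold changes of these lost calls were −0.60 to −0.55 in males and −0.76 to −0.66 in females, close to those with all mice. In females the adjusted p was 0.0364 without FC1, 0.0369 without FC2, 0.0318 without FC3, 0.022 without FC4, 0.0244 without FC5, 0.0335 without FM1, 0.0297 without FM2, 0.0155 without FM3 and 0.0248 without FM5, and without FM4 it was 0.00224 with a log2 fold change of −0.77. The joint value without FM4 was −0.70 (adjusted p = 1.01e-05), and mutants were lower in all 6 groups of sex and litter, by −0.81 to −0.49.

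*Sfrp2*, a relative of *Sfrp1*, lies at chr3:83766321-83774316, and its sex-by-genotype term was not called. *Sfrp2* read 3.8, 2.41, 4.06, 3.98 and 3.41 CPM in the male controls MC1 to MC5 and 1.02, 2.12, 2.10, 2.31 and 1.98 CPM in the male mutants MM1 to MM5. In females *Sfrp2* read 2.90, 5.51, 3.66, 5.42 and 5.47 CPM in the controls FC1 to FC5 and 4.74, 4.86, 5.72, 6.12 and 4.76 CPM in the mutants FM1 to FM5. Male mutants lay below male controls with no overlap and MM1 was the lowest, whereas female mutants lay within or above the female controls. The log2 fold change of *Sfrp2* was −0.98 (SE 0.245, adjusted p = 0.0166) in males, 0.24 (SE 0.212, adjusted p = 0.595) in females and −0.31 (SE 0.208, adjusted p = 0.292) in the joint comparison, none of them called. In males, DESeq2's Wald test (adjusted p = 0.00425) and a fit of the 20 mice together (adjusted p = 0.00633) called it lower in mutants.

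*Dkk3*, a secreted glycoprotein of the Dickkopf family at chr7:112116017-112159057, stood higher in mutants without being called. *Dkk3* read 19.1, 21.2, 21.0, 22.4 and 13.6 CPM in the male controls MC1 to MC5 and 37.5, 20.2, 25.1, 32.7 and 20.0 CPM in the male mutants MM1 to MM5. In females *Dkk3* read 34.0, 32.4, 31.0, 31.0 and 25.3 CPM in the controls FC1 to FC5 and 43.2, 43.6, 60.0, 23.0 and 30.4 CPM in the mutants FM1 to FM5. MM1, MM3, MM4, FM1, FM2 and FM3 stood above the controls of their sex, and FM4 lay below each female control. Its joint log2 fold change was 0.43 (SE 0.135, adjusted p = 0.0235). It was 0.51 (adjusted p = 0.00103) without FM4 and 0.49 (adjusted p = 0.00959) without MM2, which are the mice whose omission made it a call, in a range of 0.00103 to 0.0882 over the 20 mice left out. Mutants were higher in all 6 groups of sex and litter, by 0.27 to 0.55.

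*Wif1* binds Wnt ligands directly. *Wif1* averaged 1.58 ± 0.649 CPM in male controls, 0.678 ± 0.112 in male mutants, 1.85 ± 0.570 in female controls and 1.26 ± 0.471 in female mutants (SD, n = 5), a joint log2 fold change of −0.81 (adjusted p = 0.0148) that was −0.94 (adjusted p = 0.00305) without FM4, in a range of 0.00305 to 0.0405 over the mice left out, and adjusted p = 0.00579 by DESeq2. *Dkk2* averaged 43.9 ± 9.45 CPM in male controls, 46.3 ± 12.4 in male mutants, 59.4 ± 5.62 in female controls and 59.7 ± 15.6 in female mutants. *Dkk2*, a ligand of the LRP co-receptors, had a joint value of 0.06 (adjusted p = 0.752). *Sfrp4* and *Sfrp5* did not pass the filter in the joint comparison, and their female log2 fold changes were 1.18 (adjusted p = 0.31) and 1.98 (adjusted p = 0.188). Without FM4 they passed the joint filter with 1.43 (adjusted p = 0.00251) and 1.55 (adjusted p = 0.00578). Over the limit of 0.632 CPM stood 2 controls and 7 mutants for *Sfrp4*, and 3 controls and 6 mutants for *Sfrp5*. Both thus reached this test mostly through the mutants, their high group, which limits the test to that direction. FM4 held 0.259 CPM of *Sfrp4* and no count of *Sfrp5*, the lowest values of their group. The median joint log2 fold change of the 5 antagonists tested was −0.31.

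None of the 4 intracellular members was called by edgeR in the joint comparison, beside 10.0% of all genes that rose and 5.86% that fell. Of the 4, 3 had an unadjusted p under 0.05, beside 5346 of 14191 genes of all, and DESeq2's Wald test called 0. *Axin2* is induced by beta-catenin and restrains it, and is a common readout of the canonical branch: *Axin2* averaged 2.09 ± 0.646 CPM in male controls, 3.19 ± 0.842 in male mutants, 2.93 ± 0.592 in female controls and 4.05 ± 0.977 in female mutants (SD, n = 5), a joint log2 fold change of 0.51 (adjusted p = 0.0343) and 0.51 (adjusted p = 0.029) without FM4, with mutants higher in all 6 groups of sex and litter by 0.32 to 0.96. *Tcf7* averaged 1.68 ± 0.391 CPM in male controls, 2.47 ± 1.28 in male mutants, 1.75 ± 0.352 in female controls and 3.54 ± 2.43 in female mutants, with 0.75 (adjusted p = 0.119) and 0.89 (adjusted p = 0.0132) without FM4. *Lef1* averaged 0.845 ± 0.471 CPM in male controls, 0.632 ± 0.373 in male mutants, 1.13 ± 0.512 in female controls and 0.958 ± 0.507 in female mutants, with −0.26 (adjusted p = 0.606). *Tcf7* and *Lef1* encode nuclear partners of beta-catenin that T cells also express in high amounts. *Ctnnb1* averaged 607 ± 20.6 CPM in male controls, 704 ± 24.3 in male mutants, 668 ± 26.8 in female controls and 688 ± 51.0 in female mutants, with 0.13 (adjusted p = 0.0975). In males *Ctnnb1* was 0.21 (adjusted p = 0.038) with mutants above controls and no overlap, and DESeq2 gave it an adjusted p of 0.00375. Ulk4 lies on the opposite strand and shares 14.6% of the exon length of *Ctnnb1*. The median of the 4 members was 0.32.

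Of the T cell markers, 1 of 8 tested rose in the joint comparison, beside 10.0% of all genes, *Lck* at 0.87 (SE 0.23, adjusted p = 0.00901), and their median log2 fold change was 0.96. Their summed level was 6.73, 7.18, 8.94, 10.9 and 7.40 CPM in male controls, 21.0, 8.34, 20.3, 14.7 and 9.42 in male mutants, 11.9, 9.33, 16.0, 11.7 and 9.57 in female controls and 27.8, 26.1, 35.4, 6.21 and 16.2 in female mutants. FM4, where *Tcf7* had its lowest level at 0.345 CPM, also had the lowest T cell sum of the female mutants, and FM3 was highest for both. Without FM4, 5 of 8 rose, in a fit that called 2994 genes of all in place of 2252. *Lck* was the most abundant marker and none of the 10 was at 0 in every mouse; the part of T cells in the values of *Tcf7* and *Lef1* was not tested.

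**Figure D3:**
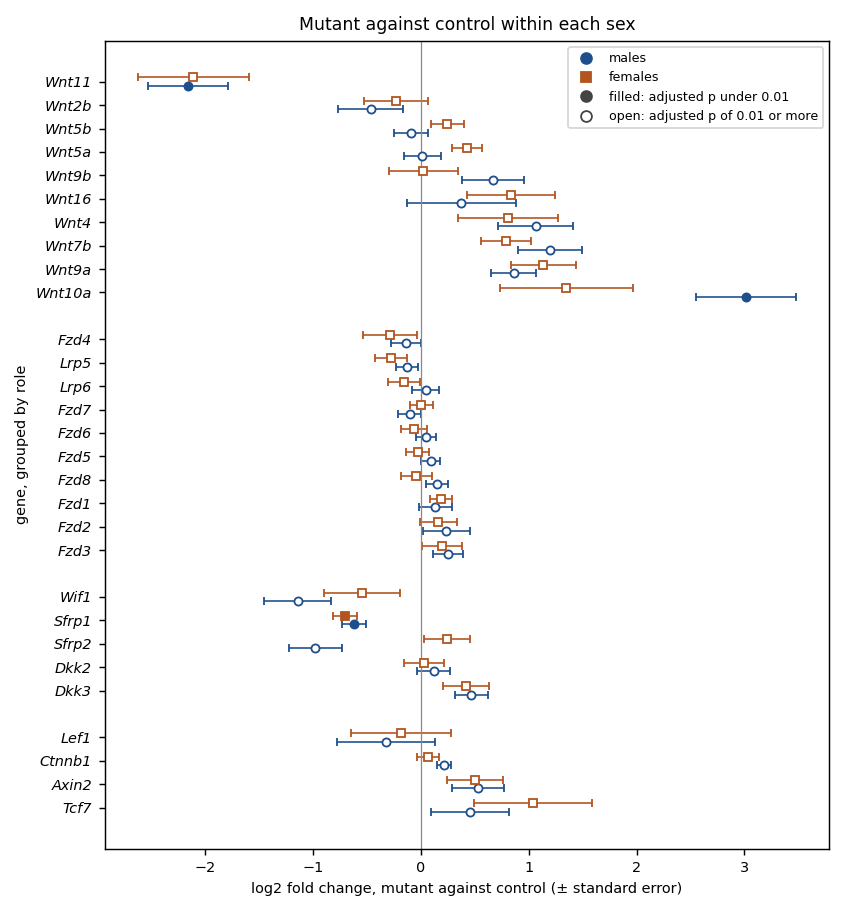
log2 fold change of mutants against controls (x axis, ± standard error) within males (blue circles) and within females (orange squares) for members tested in both sexes together, grouped by role, with filled symbols at an adjusted p under 0.01. Receptors lie near 0 in both sexes, *Wnt11* and *Sfrp1* lie below 0, and *Wnt10a* lies farthest to the right.

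The next question was how the sexes differed. In controls, 5 of 28 members tested were lower in males than in females (*Dkk3*, *Fzd3*, *Sfrp1*, *Wnt11* and *Fzd2*), beside 9.02% of all genes, and 0 were higher, beside 8.75%. DESeq2's Wald test also called 0 higher, and 13 members had an unadjusted p under 0.05 in either direction, beside 5700 of 14123 genes of all. Medians were −0.25 for the members and −0.01 for all genes. The share of members lower in males was larger than that of all genes, but the count went to 1 without FC1 or MC4, to 3 without MC1, MC2, MC5 or FC5, and to 6 without MC3, which also gave 1 member higher. Cell type markers were also lower in control males: 6 of 6 for podocytes, 6 of 6 for endothelium and 5 of 8 for tubule and glomerulus. For macrophages it was 4 of 7, for collecting duct 4 of 10 and for fibroblasts 2 of 10. Only 1 marker, of tubule and glomerulus, was higher, and the T cell, urothelium, adrenal gland and adipose lists had 0 called. The part of cell types in the members' sex differences was not tested. In mutants, 2 of 32 members were lower in males (*Sfrp2* and *Wnt5b*), beside 1.84% of all genes, and 0 were higher, beside 3.59%, with medians of −0.51 and −0.03. In mutants 14 members, beside 4399 of 14416 genes of all, had an unadjusted p under 0.05 in either direction. DESeq2 called 1 higher (*Lrp6*, adjusted p = 0.00123) and also *Fzd2* lower (adjusted p = 0.00996). The count of 2 went to 1 without MM1, MM2, FM2 or FM3 and to 0 without MM3, MM4, MM5, FM1 or FM5, and was 2 without FM4. These comparisons use the same mice as those of genotype and are not independent of them.

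*Dkk3* had the smallest adjusted p of the members between control sexes, and the values above show no overlap between male and female controls. Its log2 fold change, males against females, was −0.64 (SE 0.0872, adjusted p = 0.000198) in controls and −0.56 (adjusted p = 0.156) in mutants, where it was −0.70 (adjusted p = 0.0275) without FM4. Litter by litter (A, B, C), male minus female mean log2 CPM was −0.73, −0.49 and −0.89 in controls and −0.65, −0.45 and −0.60 in mutants. The call in controls held with each of the 10 mice left out (adjusted p 0.000307 to 0.00403). It was lost in a fit of all 20 mice, at −0.68 (adjusted p = 0.0183), where the calls of *Fzd2*, *Fzd3* and *Sfrp1* held.

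*Fzd3*, a receptor of planar cell polarity and axon guidance, lies at chr14:65192449-65262463. *Fzd3* read 6.37, 7.88, 6.61, 7.14 and 7.85 CPM in the male controls MC1 to MC5 and 7.74, 8.75, 8.78, 11.6 and 7.67 CPM in the male mutants MM1 to MM5. In females *Fzd3* read 14.7, 13.1, 15, 14.2 and 9.95 CPM in the controls FC1 to FC5 and 12.5, 13.3, 23.2, 14.2 and 11.9 CPM in the mutants FM1 to FM5. Male controls lay below female controls with no overlap, as did male mutants below female mutants, and FM3 was the highest mouse. Males against females gave −0.82 (SE 0.141, adjusted p = 0.000978) in controls and −0.67 (adjusted p = 0.0421) in mutants (−0.71 and 0.0276 without FM4). All 20 mice in 1 fit called the difference in mutants (adjusted p = 0.00225). The call in controls was lost at adjusted p of 0.014 without MC4 and 0.0219 without FC1, with log2 differences of −0.76 to −0.66, in a range of p of 0.000243 to 0.0219, and in litters A, B and C control males differed by −1.07, −0.97 and −0.34.

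*Fzd2*, at chr11:102604396-102608058, is a receptor of *Wnt5a* among other ligands. *Fzd2* read 3.66, 3.37, 5.26, 3.25 and 4.37 CPM in the male controls MC1 to MC5 and 6.16, 3.28, 4.65, 4.82 and 4.18 CPM in the male mutants MM1 to MM5. In females *Fzd2* read 6.07, 7.42, 6.48, 7.62 and 6.91 CPM in the controls FC1 to FC5 and 9.13, 7.97, 8.25, 7.24 and 5.52 CPM in the mutants FM1 to FM5. Male controls again lay below female controls with no overlap, while the mutant groups overlapped. The difference in controls was −0.74 (SE 0.179, adjusted p = 0.00804) and in mutants −0.71 (adjusted p = 0.042), or −0.73 (adjusted p = 0.0294) without FM4. In mutants *Fzd2* was called by DESeq2 (adjusted p = 0.00996) and with all 20 mice in 1 fit (adjusted p = 0.00566). The control call held without MC3 and was lost at adjusted p of 0.0166 without MC1, 0.0163 without MC2, 0.0836 without MC4, 0.0187 without MC5, 0.0201 without FC1, 0.0142 without FC2, 0.0116 without FC3, 0.0147 without FC4 and 0.019 without FC5, with log2 differences of −0.87 to −0.57, and in litters A, B and C control males differed by −0.58, −1.11 and −0.65.

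*Sfrp1* and *Wnt11*, which fell in mutants, were also lower in male than in female controls. For *Sfrp1* the difference was −0.46 (SE 0.102, adjusted p = 0.00463) in controls and −0.46 (adjusted p = 0.0469) in mutants (−0.39 and 0.0439 without FM4). Litter by litter it was −0.63, −0.51 and −0.31 in controls. In mutants *Sfrp1* was called with all 20 mice in 1 fit (adjusted p = 0.00713). Its call in controls was lost at adjusted p of 0.0384 without MC4 and 0.0565 without FC1, with log2 differences of −0.46 to −0.38, in a range of p of 0.00249 to 0.0565. For *Wnt11* the difference in controls was −0.87 (SE 0.194, adjusted p = 0.00526), with overlap between the sexes, and −0.90, −0.72 and −0.99 within the litters. It was lost at adjusted p of 0.0115 without MC1, 0.0112 without MC2, 0.0227 without MC4, 0.0199 without MC5, 0.0543 without FC1 and 0.0205 without FC5, with log2 differences of −0.93 to −0.83, in a range of p of 0.00425 to 0.0543. Without a litter term it was −0.61 (adjusted p = 0.0683), and with all 20 mice in 1 fit −1.08 (adjusted p = 0.075). In mutants *Wnt11* did not pass the filter with FM4, and without it gave −1.5 (adjusted p = 0.0252). Without MC3, *Lrp6* was higher in male controls at 0.42 (adjusted p = 0.00505) and *Dkk2* lower at −0.52 (adjusted p = 0.00122); with MC3 they were 0.35 (adjusted p = 0.0656) and −0.43 (adjusted p = 0.0362).

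Among mutants, *Sfrp2* was lower in males than in females by −1.38 (SE 0.253, adjusted p = 0.00581) with no overlap, where controls gave −0.17 (adjusted p = 0.623). Litter by litter it was −1.60, −1.28 and −1.22 in mutants and 0.20, −0.26 and −0.66 in controls. The call was lost at adjusted p of 0.0276 without MM3, 0.0196 without MM4, 0.0294 without MM5, 0.0545 without FM1, 0.0127 without FM2 and 0.0305 without FM5, with log2 differences of −1.45 to −1.31, in a range of p of 0.00453 to 0.0545, and without FM4 the value was −1.35 (adjusted p = 0.00453). *Wnt5b* lies at chr6:119432531-119544347. *Wnt5b* read 8.34, 8.26, 6.91, 6.25 and 7.85 CPM in the male controls MC1 to MC5 and 8.76, 6.63, 7.60, 5.61 and 5.70 CPM in the male mutants MM1 to MM5. In females *Wnt5b* read 11.1, 8.13, 9.84, 12.3 and 10.5 CPM in the controls FC1 to FC5 and 13.9, 9.47, 11.7, 13.3 and 12 CPM in the mutants FM1 to FM5. Male mutants lay below female mutants with no overlap, and the control sexes overlapped. The difference in mutants was −0.86 (SE 0.17, adjusted p = 0.00845) and in controls −0.50 (adjusted p = 0.0217), with −0.86, −0.79 and −1.06 within the litters in mutants. This call was lost at adjusted p of 0.0119 without MM1, 0.02 without MM2, 0.0186 without MM3, 0.0261 without MM4, 0.0482 without MM5, 0.0542 without FM1, 0.0105 without FM3 and 0.0507 without FM5, with log2 differences of −0.96 to −0.81, in a range of p of 0.00821 to 0.0542, and without FM4 it was −0.81 (adjusted p = 0.00821).

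Whether the genotype difference itself differed between the sexes was tested with a sex-by-genotype term over all 20 mice. edgeR called 0 of 33 members and 0 of 14820 genes (0%), DESeq2 called 0 members and 18 genes, and 1 member and 618 genes had an unadjusted p under 0.05. That member was *Sfrp2*, whose log2 difference was more negative in males by −1.19 (SE 0.319, adjusted p = 0.609); without FM4 the term was −1.15 (adjusted p = 0.382). For *Wnt10a* the term was 1.69 (SE 0.847, adjusted p = 1) and for *Wnt11* −0.07 (SE 0.59, adjusted p = 1). *Sfrp1* had 0.11 (SE 0.167, adjusted p = 1). Without FM4 these terms were 1.39, −0.33 and 0.18 (adjusted p = 0.77, 0.945 and 0.888). Calls made in 1 sex and not in the other are therefore not shown to differ between the sexes. Medians were 0.09 for the members and 0.03 for all genes.

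Among the 10 mutants, members were set against KBW, the kidney weight in the labels as a percentage of body weight, which ran from 0.836% in FM4 to 2.15% in MM1. The study weighed 1 kidney of each mouse for this ratio. With sex as a covariate, edgeR called a slope for 0 of 32 members and 0 of 14416 genes (0%), DESeq2 called 1 member (*Sfrp5*) and 577 genes, and 13 members and 3212 genes had an unadjusted p under 0.05. The median slope was 0.46 log2 units per percentage point for the members and −0.06 for all genes. *Sfrp5*, an antagonist related to *Sfrp1*, had the smallest adjusted p, with a slope of 3.79 (SE 0.996, adjusted p = 0.062) and 2.84 (adjusted p = 0.119) without FM4. Its DESeq2 slope was 3.85 (adjusted p = 0.00244). *Dkk3* followed with 1.20 (SE 0.321, adjusted p = 0.0658) and 0.99 (adjusted p = 0.2) without FM4. The ligands *Wnt7a*, *Wnt10a*, *Wnt2* and *Wnt16* had slopes of 3.98, 3.09, 2.63 and 2.32 (adjusted p = 0.0917, 0.0841, 0.0936 and 0.0823). Without FM4 they were 3.17, 2.61, 2.02 and 2.95 (adjusted p = 0.194, 0.221, 0.202 and 0.124). *Tcf7* had 2.66 (adjusted p = 0.0871) and 1.95 (adjusted p = 0.176) without FM4. FM4 was both the mutant of lowest KBW and the library with few detected genes, and these cannot be told apart. Without MM5, 76 genes had a slope called, of which 0 were members.

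Other genes of the pathway were taken from lists of general knowledge, chosen with earlier results of these data known, and read in the joint comparison. Of the beta-catenin target genes, 7 of 15 tested rose, beside 10.0% of all genes, and 0 fell, beside 5.86%, with a median of 0.62. The largest rises were *Cd44*, a hyaluronan receptor, at 2.56 (SE 0.301, adjusted p = 1.25e-05), and *Birc5*, the apoptosis inhibitor survivin of dividing cells, at 1.91 (SE 0.258, adjusted p = 4.4e-05). Many of these genes also answer to other signals, and what raised them was not tested. Of 8 other antagonists tested, 4 rose and 1 fell, beside the same shares of all genes, with a median of 0.78. *Nkd2*, which acts inside the cell on Dishevelled, rose by 2.17 (SE 0.457, adjusted p = 0.00172), and the secreted *Frzb* rose by 0.89 (SE 0.213, adjusted p = 0.00437). *Notum*, an enzyme that removes the lipid from Wnt proteins, fell with −0.92 (SE 0.142, adjusted p = 0.000129). Of the 2 genes for Wnt secretion, *Porcn*, which attaches that lipid, fell with −0.46 (SE 0.0937, adjusted p = 0.00134), and *Wls* had −0.06 (adjusted p = 0.498); their median was −0.26. Without FM4 the target genes had 7 rises and 0 falls, the other antagonists 4 and 1 of 9, and Wnt secretion 0 and 1.

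The remaining lists held few or no calls by edgeR with all mice, and at the shares of all genes (10.0% rising and 5.86% falling) lists this short would hold few. Of 17 tested genes of planar cell polarity and non-canonical reception, *Ryk*, a receptor of Wnt ligands, rose by 0.30 (SE 0.0575, adjusted p = 0.000794) and *Ror2*, a receptor of *Wnt5a*, fell with −0.59 (SE 0.118, adjusted p = 0.00113), and the median was 0.05. In this list DESeq2 called 5 genes, and without FM4 edgeR called 3 higher and 2 lower. Among R-spondins and their receptors 0 of 5 were called, with a median of −0.26. For the destruction complex and Dishevelled it was 0 of 12 with 0.005, and for the nuclear partners 0 of 10 with 0.02. At an unadjusted p under 0.05 the last 3 lists had 3, 1 and 2 genes, beside 5346 of 14191 genes of all. DESeq2 called 1, 0 and 1, and without FM4 edgeR called 1, 0 and 1, all lower.

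Markers of kidney cell types moved with the same comparison and are set beside it, where 10.0% of all genes rose and 5.86% fell. All 7 macrophage markers rose (median 1.58), with *C1qc*, a complement component, at 1.72 (SE 0.256, adjusted p = 9.57e-05), and *Cd14* at 1.62 (SE 0.284, adjusted p = 0.000411). *Csf1r* was the most abundant, and the macrophage sum was 102, 112, 110.2, 109.5 and 117 CPM in male controls, 385, 155, 248, 244 and 168 in male mutants, 173, 135, 141, 139 and 151 in female controls and 457, 309.9, 526, 138 and 197 in female mutants. Of the fibroblast and myofibroblast markers, 6 of 10 rose (median 1.22), led by the collagens *Col3a1* at 2.20 (SE 0.239, adjusted p = 6.41e-06) and *Col1a1* at 2.05 (SE 0.26, adjusted p = 2.46e-05). *Col3a1* was also the most abundant, and this sum was 351, 308, 345, 337 and 269 CPM in male controls, 1343, 521, 865, 991 and 463 in male mutants, 383, 370, 551, 489 and 400.2 in female controls and 1079, 1085, 1761, 533 and 613 in female mutants. Of the urothelium markers, 2 of 7 rose (median 0.53), *Krt20* at 5.13 (SE 0.628, adjusted p = 1.81e-05) and *Upk3b*, the most abundant, at 0.96 (SE 0.258, adjusted p = 0.00937). The size of the *Krt20* rise rests on control means near the floor of counting, 0.128 CPM in males and 0.348 CPM in females. Within a sex, the median of the urothelium list was 0.06 in males and 0.91 in females. The urothelium sum was 5.56, 7.62, 14.1, 31.9 and 13.9 CPM in male controls, 36.6, 22.4, 26.7, 58.7 and 16.1 in male mutants, 21.2, 7.69, 47.5, 25.2 and 19.4 in female controls and 56.2, 43.2, 92.5, 34.7 and 21.3 in female mutants. MM1 and MM4 held the 2 highest levels of *Wnt4* in male mutants and also the 2 highest urothelium, fibroblast and endothelium sums. FM1 and FM3 did so in female mutants for *Wnt4* and for the urothelium, macrophage and T cell sums. Other lists differed: MM3 stood above MM4 in the macrophage and T cell sums. FM1 had the lowest endothelium sum of the female mutants (404 CPM), and FM2 stood above FM1 in the fibroblast sum. FC3, the control with high *Wnt4*, *Wnt7b* and *Wnt9b*, had the highest urothelium, fibroblast, T cell, endothelium and adipose sums among female controls. The macrophage and the tubule and glomerulus sums were highest in FC1, the podocyte sum in FC2, the adrenal sum in FC4 and the collecting duct sum in FC5. What set FC3 apart was not tested.

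Several markers of nephron segments fell. Of 8 tubule and glomerulus markers, 5 fell (median −0.52), led by the distal sodium chloride transporter *Slc12a3* at −1.12 (SE 0.136, adjusted p = 1.79e-05) and *Slc12a1* of the loop at −0.73 (SE 0.126, adjusted p = 0.000336). *Umod* was the most abundant, and the sum was 14430, 14450, 14030, 14840 and 15210 CPM in male controls, 9792, 12590, 12090, 12120 and 13490 in male mutants, 16820, 16290, 16150, 15650 and 16240 in female controls and 11130, 10760, 9269, 14530 and 13000 in female mutants. Of 10 collecting duct markers, 4 fell (median −0.24), led by *Slc4a1*, the anion exchanger of intercalated cells, at −1.26 (SE 0.179, adjusted p = 6.32e-05), and the water channel *Aqp3* at −0.38 (SE 0.0878, adjusted p = 0.00368). *Tfcp2l1* was the most abundant, and the collecting duct sum was 1026, 1014, 1049, 1208 and 1047 CPM in male controls, 837, 853, 886, 978 and 889 in male mutants, 1384, 1431, 1475, 1456 and 1552 in female controls and 1311, 1189, 1024, 1418 and 1421 in female mutants. Of 6 podocyte markers, 4 fell (median −0.53), among them *Nphs1* of the slit diaphragm at −0.65 (SE 0.117, adjusted p = 0.000543). *Podxl* was the most abundant, and the podocyte sum was 399, 403, 387, 402 and 262 CPM in male controls, 231, 303, 264, 344 and 242 in male mutants, 571, 654, 597, 599 and 512 in female controls and 378, 388, 405, 464 and 484 in female mutants. By edgeR the endothelium list had 0 of 6 called (median 0.05), and DESeq2 called 1. At an unadjusted p under 0.05 this list had 4, beside 5346 of 14191 genes of all. Without FM4, edgeR called 1 endothelium marker higher, all 7 macrophage, 8 fibroblast and myofibroblast and 2 urothelium markers higher, and 5 tubule and glomerulus, 4 collecting duct and 4 podocyte markers lower. Adrenal gland had 0 of 1 tested and adipose tissue 0 of 2, with 0 at an unadjusted p under 0.05 and 0 by DESeq2. No marker of these lists was at 0 in every mouse, and adipose sums ran from 0.339 to 419.9 CPM, the highest in FM3. The part of changed cell numbers in the values of the Wnt genes was not tested.

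Promoter windows of the members and of all genes were searched for short sequence words. RefSeq windows on GRCm38.p6 were used for 30 of 44 members, with none for *Wnt7b*, *Wnt10a*, *Sfrp1*, *Dkk3*, *Fzd2* and *Fzd3* among those called. Some members were left out of the search by rule and the windows of all genes were not, so their shares rest on unlike selections. The words searched on both strands were CTTTGAA and CTTTGAT, which TCF and LEF factors can bind, in the 250 bases before each start. A match was present in 2457 of 32851 windows of all genes (7.48%) and in 3 of 38 windows of members (7.89%), which belong to *Wnt11*, *Wnt5b* and *Dkk1*. The *Wnt9a* window (chr11:59306680-59306929, plus strand) held no match, and neither did the inner *Wnt11* window (chr7:98838595-98838844, plus strand), which lies in an intron of the annotated gene. The outer *Wnt11* window (chr7:98834862-98835111, plus strand) held CTTTGAT on the strand opposite to the gene 51 bases before the start, printed in capitals as read on the strand of the gene, and the innermost of 3 *Wnt5b* windows (chr6:119449387-119449636, minus strand) held CTTTGAT on the strand of the gene 71 bases before the start and also lies in an intron of the annotated gene. No match was in the other 2 *Wnt5b* windows or in the *Sfrp2* window (chr3:83766071-83766320, plus strand). The *Wnt11* and *Wnt5b* windows with a match, and those of *Wnt9a* and *Wnt11* without one, are shown 5′ to 3′ on the strand of the gene, with matches in capitals.
Wnt9a: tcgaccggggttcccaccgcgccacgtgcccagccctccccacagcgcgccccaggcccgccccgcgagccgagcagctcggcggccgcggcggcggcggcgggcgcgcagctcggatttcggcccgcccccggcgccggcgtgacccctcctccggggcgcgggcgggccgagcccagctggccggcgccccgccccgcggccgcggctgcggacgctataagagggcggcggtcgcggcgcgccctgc
Wnt11 outer: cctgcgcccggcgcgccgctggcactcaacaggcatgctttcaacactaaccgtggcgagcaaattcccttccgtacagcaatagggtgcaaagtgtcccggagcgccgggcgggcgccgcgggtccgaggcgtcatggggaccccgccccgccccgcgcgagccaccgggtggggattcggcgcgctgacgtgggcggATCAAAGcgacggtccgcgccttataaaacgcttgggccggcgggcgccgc
Wnt11 inner: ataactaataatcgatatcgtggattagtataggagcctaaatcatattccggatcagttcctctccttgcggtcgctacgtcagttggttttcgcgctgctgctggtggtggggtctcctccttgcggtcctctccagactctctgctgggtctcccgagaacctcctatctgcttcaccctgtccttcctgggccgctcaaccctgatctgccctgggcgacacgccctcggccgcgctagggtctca
Wnt5b inner: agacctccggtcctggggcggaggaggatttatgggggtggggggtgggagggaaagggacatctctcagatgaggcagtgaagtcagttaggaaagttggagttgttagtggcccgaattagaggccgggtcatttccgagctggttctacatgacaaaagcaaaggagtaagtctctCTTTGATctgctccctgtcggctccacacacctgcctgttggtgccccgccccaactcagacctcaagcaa

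Low counts limited the other members. *Wnt1* had no count in any mouse, *Wnt3*, *Wnt3a*, *Wnt8a* and *Dkk4* had 2, 1, 1 and 2 counts over the 20 mice, and *Dkk1*, *Fzd9*, *Fzd10*, *Wnt6*, *Wnt8b* and *Wnt10b* had 23 to 100. In single mice these 6 had at most 14 counts. Differences between groups were not detectable for them at this depth, which does not show that they are absent. *Sfrp4*, *Sfrp5*, *Wnt2* and *Wnt7a* had 219 to 377 counts over all mice and passed the filter in some comparisons, where *Wnt2* had a female log2 fold change of 0.20 (adjusted p = 0.889). *Wnt1* lies beside *Wnt10b*, *Wnt3* beside *Wnt9b* and *Wnt3a* beside *Wnt9a*, 11.7, 24.3 and 16.2 kb apart, and in the last 2 pairs a ligand that was tested lies beside one with next to no counts.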

How the data were processed

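Kidney RNA of 20 mice, 5 in each of 4 groups of sex and genotype and from 3 litters, was sequenced by the authors, 1 library per mouse. The deposited values are raw counts, 1 whole number per symbol and library. Upstream, the authors used fastp 0.23.2 for trimming and STAR 2.7.10b for alignment (genome mm10), and how reads were counted, on which annotation and strand, is not stated. Here the counts were fitted in R 4.3.3 with edgeR 4.0.16 (TMM scaling, filterByExpr, quasi-likelihood test, Benjamini-Hochberg adjustment over all genes tested), and a gene was called at an adjusted p under 0.01. CPM used TMM-scaled totals, and log2 CPM a prior count of 2.

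Litter was the covariate within a sex or genotype. The fits of all mice, for the joint difference and for the term of sex by genotype, had 6 groups of sex and litter, and the slope on KBW among mutants had sex. Members passing the filter in the joint comparison are given in each group, and members called in at least 1 comparison mouse by mouse. Of each list (Wnt secretion, R-spondins and their receptors, other antagonists, destruction complex and Dishevelled, nuclear partners, beta-catenin target genes, planar cell polarity and non-canonical receptors, and markers of tubule and glomerulus, T cells, fibroblasts and myofibroblasts, collecting duct, podocytes, urothelium, endothelium, macrophages, adrenal gland and adipose tissue), up to 2 rises and 2 falls are named, except 1 gene that is not reported here. The members and the lists were chosen with earlier results of these data known. The members left out of the promoter search by rule were *Fzd8* and *Wnt8a*.

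Alternatives were DESeq2 1.42.0 (its Wald test, or its size factors in edgeR), no low-count filter, a minimum of 10 counts in every mouse, another covariate, all 20 mice in 1 fit, and each mouse left out in turn. Totals of 11307741 to 19324073 counts make 1 CPM equal to 11.6 to 19.8 counts, and counting error is not the spread between mice. The procedure was tested on simulated data, where it found most changes of 1 on the log2 scale between groups, few of those in the sex-by-genotype term and fewer still in the slope, so 0 calls there do not show that nothing changed. How the procedure does for members with few counts, such as *Wnt10a* and *Wnt11*, or with more spread between mice, was not tested. Exon lengths and positions are from GENCODE vM21 (GRCm38).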

Additional observations from a re-analysis of the deposited data

Results flagged for a closer look

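Among 120 groups of 5 mice (29 members and *Pkd2* in 4 groups), 10 held a mouse whose distance to its nearest neighbour was more than 0.71 of the whole range of the group, and chance gives about 1 in 20 groups. FM4 held 1 of these values and other mice held 9.

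*Dkk2* read 60.3 CPM in the male control MC3 and at most 42.1 CPM in the rest of its group. *Dkk2* read 67.9 CPM in the male mutant MM1 and at most 43.5 CPM in the rest of its group. *Fzd3* read 11.6 CPM in the male mutant MM4 and at most 8.78 CPM in the rest of its group. *Fzd3* read 23.2 CPM in the female mutant FM3 and at most 14.2 CPM in the rest of its group. *Fzd7* read 50.4 CPM in the female mutant FM4 and at most 39.6 CPM in the rest of its group. *Lrp5* read 51.8 CPM in the male mutant MM4 and at most 44.9 CPM in the rest of its group. *Lrp6* read 187 CPM in the male control MC3 and at least 253 CPM in the rest of its group. *Sfrp2* read 1.02 CPM in the male mutant MM1 and at least 1.98 CPM in the rest of its group. *Wnt16* read 4.00 CPM in the female mutant FM3 and at most 2.07 CPM in the rest of its group. *Wnt4* read 11.4 CPM in the female control FC3 and at most 4.71 CPM in the rest of its group.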

How the results depend on the processing

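No called difference changed sign under any alternative run. For single genes called, the call was kept in 95 results under other processing and lost in 3, and with 1 mouse left out it was kept in 192 and lost in 48. Genes not called stayed so in 1065 and 2608 results and were called in 26 and 12. In males, the members that rose went from 1 to 3 with DESeq2's Wald test, 3 without a filter on low counts, 0 with at least 10 counts in every mouse (where fewer genes were tested), 3 without a litter term and 2 with all 20 mice in 1 fit. The members that fell went from 2 to 3 with DESeq2 and with all 20 mice in 1 fit (with *Sfrp2*) and to 1 with at least 10 counts, and all genes called from 1185 to 2001 with DESeq2. In females, DESeq2 gave 1 member higher, 2 lower and 928 genes of all in place of 92, all 20 mice in 1 fit gave 2, 2 and 856, no filter gave 230 genes and no litter term 172. In the joint comparison, at least 10 counts in every mouse removed *Wnt10a* and *Wnt11* and left 1 member lower. In the same comparison *Wif1* was also called lower by DESeq2 (adjusted p = 0.00579) and with sex as the covariate (adjusted p = 0.0069). With no filter on low counts, edgeR also called *Wnt7a* higher (adjusted p = 0.000448). In controls, all 20 mice in 1 fit left 3 members lower in males. In mutants, DESeq2 gave 1 member higher in males, added *Fzd2* to those lower and gave 1959 genes in place of 782. All 20 mice in 1 fit gave 1 higher, 6 lower and 2353 genes. For the sex-by-genotype term, DESeq2 called 18 genes, no filter 2 and at least 10 counts 1. For the slope on KBW, DESeq2 called 1 member and 577 genes. The cause was not tested.

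With 1 mouse left out in turn, the members that rose, the members that fell and all genes called were 0 to 4, 0 to 2 and 187 to 1863 in males, 0 to 1, 0 to 2 and 3 to 866 in females, and 3 to 6, 2 to 3 and 1656 to 2994 in the joint comparison. For males against females they were 0 to 1, 1 to 6 and 1223 to 2659 in controls and 0 to 0, 0 to 2 and 246 to 1330 in mutants. For the term they were 0 to 0, 0 to 0 and 0 to 3, and for the slope 0 to 0, 0 to 0 and 0 to 76. Where a litter then held 1 mouse of a group, that mouse was assumed to vary like the others, and where it held 0, the litter no longer counted in the contrast.

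No paired analysis was possible because the replicate numbers only name mice in accession order. Members removed by a filter gave no value under it, and the slope had no fit of all 20 mice. DESeq2's size factors moved the median of all genes by less than 0.1 on the log2 scale in each comparison. Depth limits the ligands with few counts: by counting error alone, a count of 0 allows up to 0.259 CPM in FM4. That bound is in doubt for FM4, which had few genes with a single count.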
